A study of Mus musculus with 6 samples.

Results

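TFIID is the general transcription factor that recognises core promoters and helps to load RNA polymerase II. It is built from the TATA-binding protein TBP and a set of TBP-associated factors (TAFs). Many TAFs carry a histone fold, a helical domain that holds subunits together in pairs: TAF11 with TAF13, TAF8 or TAF3 with TAF10, TAF6 with TAF9 and TAF12 with TAF4. TAF5, a WD40-repeat protein, joins such pairs into the core of the complex, TAF8 connects that core to TAF2, and TAF1 and TAF2 contact DNA around the start site. The genes described here are the 10 members Taf1, Taf2, Taf3, Taf5, Taf6, Taf8, Taf10, Taf11, Taf12 and Taf13, chosen by name for their place in the complex. Earlier results of these data were known when these members and the gene lists below were chosen. Each matched 1 of the 55401 Ensembl identifiers in the count table, and all 10 passed the filter on low counts.

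The series is polyadenylated RNA from mouse embryonic stem (ES) cells, pluripotent cells grown in culture, and its title concerns the need for Taf13 in RNA polymerase II transcription. It has 2 groups of 3 libraries. Cells labelled 3XHA-Taf13 expressing carry Taf13 with an HA epitope tag and had no treatment. Cells labelled KO had doxycycline, and both groups were cultured for 7 days, each library from its own Petri dish. The construct, the way doxycycline acts in these cells, the strain and whether the line is 1 clone were not stated by these sources. Drug and label always go together, so their effects cannot be told apart.

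Levels are given in CPM, a gene's counts per 1000000 counts of the TMM-scaled library. Library totals ran from 31219328 to 50328010 counts. Over all genes, expressing replicate 1 stood apart. Its counts differed from those of expressing replicates 2 and 3 with a chi-square per degree of freedom of 33.9 and 27.5, against 3.27 to 5.67 in the other pairs within a group. Its deviation from its group mean rose with the GC content of genes (r = 0.523, taken across genes and so a description). ES cell markers were high in both groups, with Pou5f1, Nanog and Sox2 at mean levels of 828, 281 and 279 CPM with tagged Taf13 and 498, 119 and 189 CPM under the KO label. Of 10 such markers 9 fell, and their summed level went from a range of 3613 to 3810 CPM down to 2514 to 2584 CPM. All 10 primitive endoderm markers rose (summed level 79.9 to 91.0 CPM, then 413.0 to 452.0 CPM). Gata4, Gata6 and Sox17, which define that extraembryonic lineage, went from means of 4.63, 1.61 and 0.416 CPM to 17.4, 10.19 and 3.90 CPM. Of 10 fibroblast markers, 3 rose and 1 fell (summed level 146.0 to 176.6 CPM, then 142.2 to 246.5 CPM). Among all genes tested, 40% were called by the edgeR test described below, 19.2% higher and 20.8% lower. The fibroblast list was thus at that share. Col1a1, Col1a2 and Col3a1, the abundant collagens of that list, had means of 49.6, 39.5 and 10.2 CPM, then 52.3, 43.8 and 11.5 CPM. Only KO replicate 2 lay above the expressing mean for each of the 3, with Col1a1 at 76.0 CPM against 40.9 and 40.1 in KO replicates 1 and 3, and Col1a2 at 68.0 against 31.6 and 31.8. KO replicate 2 thus stood apart on these markers and gave the highest summed level. Of 7 tested trophectoderm markers 2 rose and 5 fell (mean levels of Cdx2, Gata3 and Eomes went from 10.8, 1.31 and 31.3 to 5.23, 3.53 and 27.0 CPM, and the summed level from 198.2 to 245.9 CPM to 201.0 to 211.8 CPM). Of 7 tested neural markers 2 rose and 4 fell (mean levels of Sox1, Pax6 and Nes went from 1.75, 10.8 and 263.8 to 4.99, 7.33 and 231.4 CPM, and the summed level from 424.3 to 490.4 CPM to 338.3 to 359.7 CPM). Leaving out 1 library changed most of these counts, and the share of all tested genes called then ran from 28.8% to 50.9%. Whichever library was dropped, 8 ES cell markers fell, or 7 without KO replicate 2. Fibroblast markers that rose numbered 2 or 3, trophectoderm markers that fell 4 or 5 and neural markers that fell 3 or 4. Without KO replicate 2, 3 fibroblast markers fell. Only 1 trophectoderm marker rose when KO replicate 1 or 2 or expressing replicate 2 or 3 was dropped. Only 1 neural marker rose when KO replicate 1 or 3 or expressing replicate 2 or 3 was dropped. The part of these shifts in the TFIID values below was not tested. In such bulk RNA, fewer cells of a type and less RNA per cell cannot be told apart.

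The start regions of 4 members are shown because these are the gene named in the group label and the 3 members with the most stable differences between the groups: Taf5 and Taf8, which fell, and Taf12, which rose. Each stretch runs 5′ to 3′ on the gene's own strand from 100 bases before to 30 bases after the RefSeq start (GRCm38.p6). Taf13 lies on the plus strand at chr3:108571599-108571728, Taf5 on the plus strand at chr19:47067648-47067777, Taf8 on the minus strand at chr17:47502262-47502391 and Taf12 on the plus strand at chr4:132274275-132274404. Capitals mark short motifs found on either strand.
Taf13: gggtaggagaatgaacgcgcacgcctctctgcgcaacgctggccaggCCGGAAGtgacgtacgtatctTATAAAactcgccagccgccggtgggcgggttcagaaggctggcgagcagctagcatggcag
Taf5: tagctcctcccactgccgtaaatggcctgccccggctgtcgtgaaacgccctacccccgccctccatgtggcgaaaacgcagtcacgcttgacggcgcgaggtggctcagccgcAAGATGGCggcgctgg
Taf8: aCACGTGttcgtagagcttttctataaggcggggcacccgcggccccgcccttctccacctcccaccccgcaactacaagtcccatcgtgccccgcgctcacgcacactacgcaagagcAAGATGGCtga
Taf12: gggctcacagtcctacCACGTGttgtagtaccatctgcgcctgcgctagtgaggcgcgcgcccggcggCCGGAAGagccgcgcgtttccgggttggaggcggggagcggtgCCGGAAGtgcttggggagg

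The motifs searched were chosen after the sequences had been read. They were the TATA-box core (TATAAA), the ETS core (CCGGAAG), the YY1 core (AAGATGGC), the E-box (CACGTG), the cAMP response element (TGACGTCA) and the CCAAT box, and none overlapped another in the stretches shown. Both Taf5 and Taf8 hold the YY1 core just after the start, at positions 15 and 20, counted from 1 at the first transcribed base. Taf6 holds it too, at position 17, and its transcript did not pass the test below. In full windows of 300 bases, at any position and on either strand, this motif occurs in 2.75% of 32851 RefSeq promoters. The share with it just after the start was not counted. It was picked by reading these sequences, so its presence in both Taf5 and Taf8 is no test. Taf13 has the TATA-box core at -32 and the ETS core at -53, and Taf12 has the ETS core at -32 and 12 and the E-box at -84. Anywhere in the window, the TATA-box core occurs in 13.6% of promoters and in 4 of the 9 members with a RefSeq promoter (Taf5, Taf6, Taf11 and Taf13). Here members are counted per gene, over 11 promoters of 9 genes, while the percentages are per promoter. A member with more than 1 promoter thus had more chances of a match. The ETS core occurs in 8.86% of promoters and in 5 of the 9 (Taf1, Taf3, Taf11, Taf12 and Taf13), and the E-box in 7.15% and in 2 of the 9 (Taf8 and Taf12). The CCAAT box was found in Taf1, Taf11 and Taf13 (37.4% of promoters) and the cAMP response element in Taf11 alone among the 9 (1.79%). These matches describe letters in the sequence, and no binding was measured.

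The 10 transcripts did not move as one. In the libraries labelled KO, Taf5, Taf8 and Taf1 fell, Taf12 rose, and 6 members did not pass the test (edgeR quasi-likelihood test, Benjamini-Hochberg adjusted p under 0.05 over 17778 genes). That is 4 of 10 members, beside 40% of all tested genes, with 3 lower beside 20.8% and 1 higher beside 19.2%. The libraries of the 2 groups did not overlap for the same 4 members, against 53.5% of all tested genes (26.4% with KO higher and 27.1% with KO lower). The share of members called was thus at the background. The median log2 fold change (KO minus expressing) was -0.01 over the members and -0.01 over all tested genes, and the median size of change regardless of sign was 0.168 and 0.285. Summed over the 10 genes, the level ranged from 737.7 to 753.7 CPM in the expressing group and from 700.1 to 715.8 CPM in the KO group. Taf1 and Taf2 made up the largest parts of that sum. Mean Taf1 went from 238.2 to 203.9 CPM and mean Taf2 from 175.7 to 188.3 CPM, so the sum is no measure of the set as a whole.

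**Figure D1:**
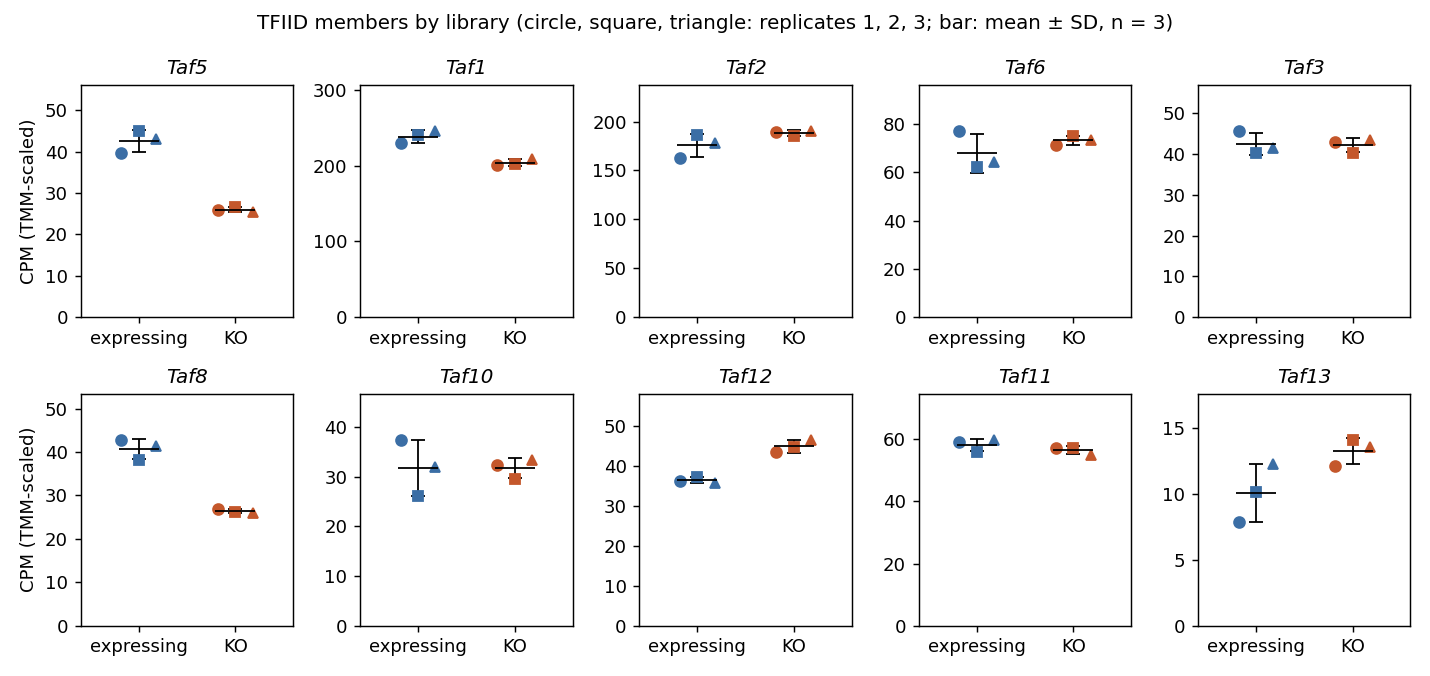
Levels of the 10 members in CPM (counts scaled to TMM library size) in each library, with a circle, square and triangle for replicates 1, 2 and 3 and a bar for the mean ± SD (n = 3). The groups stand apart for Taf5, Taf8 and Taf1, which are lower in the libraries labelled KO, and for Taf12, which is higher; the other 6 members overlap.

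Taf13, the gene named in the series title, encodes the small histone-fold partner of TAF11 and lies on chromosome 3 from 108571698 to 108583222 (mm10, plus strand). Its main transcript has 4 exons and 2443 bases, of which 372 are coding. It was counted at 7.82, 10.1 and 12.2 CPM in expressing replicates 1, 2 and 3 and at 12.1, 14.1 and 13.5 CPM in KO replicates 1, 2 and 3. The libraries labelled KO were not lower: KO replicate 1 lay just under expressing replicate 3, and every other KO library lay above all expressing ones. The log2 fold change was 0.40 (95% interval 0.06 to 0.73, adjusted p = 0.0578, edgeR), so the test was missed with an interval that lay above 0. It passed in 9 of 14 alternative analyses, with an adjusted p between 0.00257 and 0.166 over the 14 (edgeR or DESeq2) and log2 fold changes from 0.28, without expressing replicate 1, to 0.57, without expressing replicate 3. The gene count does not tell tagged from chromosomal Taf13 or one part of the transcript from another, so it does not check the KO label, and every direction here rests on the labels. Protein was not measured.

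The 3 genes whose levels over the 6 libraries were most like those of Taf13, of 14074 others with a mean of at least 1 CPM, were Adcy7 (Pearson r = 0.994 of log2 CPM), Gm48604 (0.991) and Rrm2b (0.984). As many as 512 genes reached an r of 0.9 over these 6 libraries, which differ in depth and include the GC tilt of expressing replicate 1. Adcy7, an adenylate cyclase, and Gm48604 were not called themselves (log2 fold changes 0.18 and 0.11). Rrm2b, a ribonucleotide reductase subunit, rose by 0.42 (adjusted p = 0.0422, edgeR).

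Taf11, whose product folds against TAF13, kept nearly the same level. It stood at 59.0, 55.9 and 59.7 CPM in expressing replicates 1 to 3 and 57.3, 57.2 and 55.0 CPM in KO replicates 1 to 3. The groups overlapped, and the 95% interval of the log2 fold change ran from -0.18 to 0.09 (value -0.04, adjusted p = 0.606, edgeR), which bounds the KO level between 0.883 and 1.07 times the expressing level. Exons of Anks1 (6.2% of the merged Taf11 exons) and of an antisense gene (10%) lie on the opposite strand. The strand setting of the counting step was not stated.

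Taf5, the WD40-repeat scaffold of the core, was the member with the lowest fold change. It stood at 39.6, 44.9 and 43.0 CPM in expressing replicates 1 to 3 and 25.9, 26.5 and 25.4 CPM in KO replicates 1 to 3. The 3 KO libraries lay close together and well under the lowest expressing library. The level fell to 0.610 of that in the expressing libraries (95% interval 0.545 to 0.682; log2 fold change -0.71, SE 0.0722, adjusted p = 7.83e-05, edgeR), and the call held in all 14 alternatives, with values from -0.73 to -0.62. Its gene lies on chromosome 19 from 47067746 to 47083479 and has a single annotated transcript of 11 exons.

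Taf6, a second core subunit whose product pairs with TAF9, did not pass the test. Its levels were 77.1, 62.5 and 64.2 CPM in expressing replicates 1 to 3 and 71.4, 75.0 and 73.6 CPM in KO replicates 1 to 3. Expressing replicate 1 lay above every KO library and expressing replicates 2 and 3 below every one, so the groups overlapped through that 1 library. The log2 fold change was 0.11 (95% interval -0.08 to 0.30, adjusted p = 0.316, edgeR), and without expressing replicate 1 it was 0.24, with an adjusted p of 8.03e-05 (edgeR). With the GC trend of each library removed it was 0.16 (adjusted p = 0.0139, edgeR). Exons of Ap4m1, on the opposite strand, cover 26.5% of the merged Taf6 exons, and Ap4m1 itself had a log2 fold change of -0.22 (adjusted p = 0.0772, edgeR).

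Taf8 encodes the subunit that pairs with TAF10 and carries TAF2 into the complex. Its transcript fell almost as far as Taf5. It stood at 42.7, 38.2 and 41.4 CPM in expressing replicates 1 to 3 and 26.9, 26.2 and 26.0 CPM in KO replicates 1 to 3. No library of one group reached the other, and the KO level was 0.647 of the expressing level (95% interval 0.580 to 0.722; log2 fold change -0.63, SE 0.0705, adjusted p = 1.40e-04, edgeR). That call also held in all 14 alternatives, with values from -0.67 to -0.54.

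Taf10, which encodes the common partner of TAF8 and TAF3 and is also a subunit of the coactivator SAGA, had the widest spread of the 10 after Taf13. Its levels were 37.4, 26.2 and 32.0 CPM in expressing replicates 1 to 3 and 32.3, 29.5 and 33.4 CPM in KO replicates 1 to 3. The group means, 31.9 ± 5.63 and 31.7 ± 2.01 CPM (SD, n = 3), differed by less than the spread, and the 95% interval of the log2 fold change was -0.27 to 0.27 (adjusted p = 0.985, edgeR). The annotated Taf10 exons overlap those of Ilk on the opposite strand over 45.9% of their length. Ilk, which encodes integrin-linked kinase, rose by 0.84 (adjusted p = 3.67e-05, edgeR), so the Taf10 value is uncertain if strands were not kept apart in counting.

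Taf3, the other TAF10 partner and a reader of methylated histone tails, stood at 45.6, 40.3 and 41.6 CPM in expressing replicates 1 to 3 and 42.9, 40.3 and 43.5 CPM in KO replicates 1 to 3. The groups overlapped over almost their whole range. Its log2 fold change was -0.01, with a 95% interval from -0.17 to 0.15 (adjusted p = 0.925, edgeR). Exons of C630004M23Rik (5.7% of the merged Taf3 exons) and Gm13262 (2.0%) lie on the opposite strand. C630004M23Rik had a log2 fold change of 0.85 (adjusted p = 0.0720, edgeR). The products of Taf8 and Taf3 share TAF10 as a partner, and the 2 transcripts had log2 fold changes of -0.63 and -0.01.

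Taf12, which encodes the histone-fold partner of TAF4 and is shared with SAGA, was the member that rose. Its levels were 36.3, 37.3 and 35.8 CPM in expressing replicates 1 to 3 and 43.5, 44.8 and 46.5 CPM in KO replicates 1 to 3. Each KO library lay above each expressing one. The KO level was 1.23 times the expressing level (95% interval 1.11 to 1.36; log2 fold change 0.30, SE 0.0638, adjusted p = 0.00492, edgeR), and the call held in all 14 alternatives. The change was smaller than those of Taf5 and Taf8.

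Taf1, the largest subunit, which carries bromodomains, fell slightly. It stood at 229.2, 240.1 and 245.3 CPM in expressing replicates 1 to 3 and 201.4, 201.5 and 208.9 CPM in KO replicates 1 to 3. The groups did not overlap, and the KO level was 0.856 of the expressing one (95% interval 0.787 to 0.932; log2 fold change -0.22, adjusted p = 0.00951, edgeR). The call was lost with libraries scaled by their totals (adjusted p = 0.0587, edgeR), and when expressing replicate 3 (0.0506), KO replicate 1 (0.0528) or KO replicate 2 (0.0539) was left out.

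Taf2, an aminopeptidase-like subunit that contacts the initiator, had levels of 162.9, 185.9 and 178.5 CPM in expressing replicates 1 to 3 and 189.7, 185.1 and 190.1 CPM in KO replicates 1 to 3. Expressing replicate 2 lay among the KO libraries, and expressing replicates 1 and 3 lay below them. The log2 fold change was 0.10 (95% interval -0.04 to 0.24, adjusted p = 0.235, edgeR). Scaling by library totals gave 0.19 and an adjusted p of 0.0223 (edgeR), while that scaling moved the median of all tested genes from -0.01 to 0.08.

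**Figure D2:**
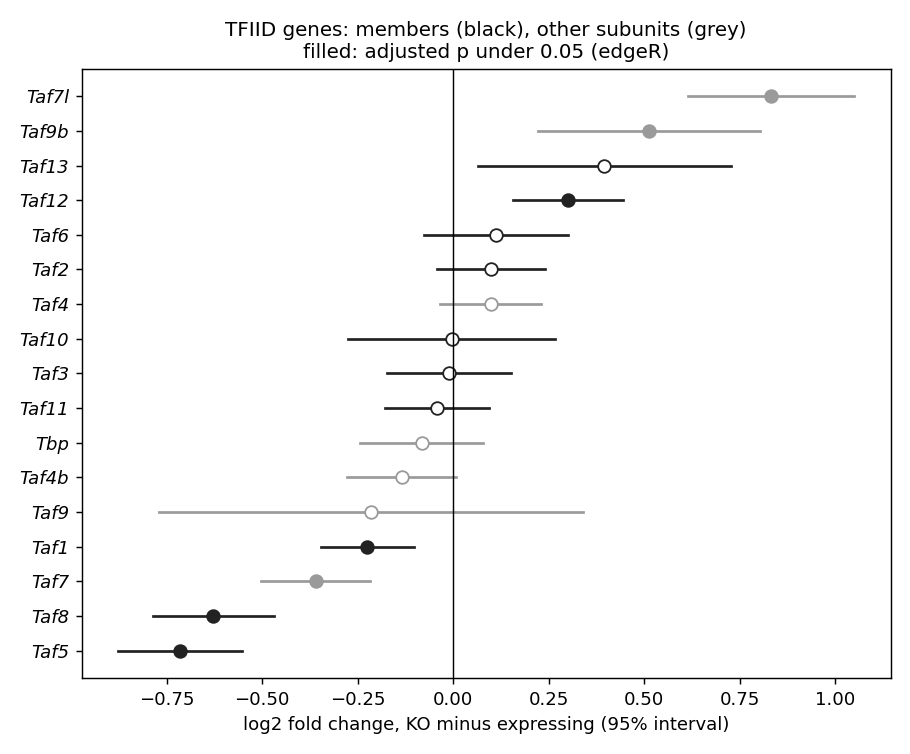
Log2 fold changes (KO minus expressing) with 95% intervals for the 10 members in black and 7 other TFIID genes in grey; filled points passed the edgeR test. Taf5 and Taf8 lie lowest at -0.71 and -0.63, Taf7l lies highest at 0.83, and most of the remaining points sit near 0.

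Within the expressing group, the deviation of replicate 1 differed between members of low and high GC content. Expressing replicate 1 differed from the mean of expressing replicates 2 and 3 by -0.51 (log2 CPM) for Taf13, the member with the lowest GC content (42.4%). It differed by 0.37 for Taf10 (52.6% GC) and 0.28 for Taf6 (53.6% GC), and by -0.01 for Taf12 (50%). Over the 10 members this deviation had a Pearson r of 0.826 with GC content, a description over genes that share the same 3 libraries. The span of the 3 expressing libraries was 0.52 for Taf10 and 0.65 for Taf13, against 0.18 and 0.22 in the libraries labelled KO. Expressing replicates 2 and 3 alone still spanned 0.29 and 0.28, more than the KO libraries, and for Taf11 and Taf12 replicate 1 lay between them. Without expressing replicate 1, 3 members were higher (Taf6, Taf12 and Taf13) and the same 3 lower, and the share of all tested genes called also went up, to 50.9% (26.2% higher and 24.7% lower).

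Levels can be compared between genes only per length, here as CPM per kilobase of the main annotated transcript (± SD, n = 3). In the expressing libraries Taf1 (40.01 ± 1.38) led, followed by Taf2 (34.9 ± 2.33), Taf6 (29.4 ± 3.47) and Taf11 (26.4 ± 0.928). A second tier held Taf8 (14.6 ± 0.830), Taf5 (13.04 ± 0.817), Taf12 (9.64 ± 0.202), Taf3 (8.87 ± 0.572) and Taf10 (7.44 ± 1.32), and Taf13 (4.11 ± 0.904) came last. Library values overlapped between neighbours for Taf2 and Taf6, Taf8 and Taf5, Taf12 and Taf3, and Taf3 and Taf10, and Taf6 and Taf11 met at 27.1. Taf13 lay below all other members in every library of both groups. In the libraries labelled KO, Taf2 (36.8 to 37.8) lay above Taf1 (33.8 to 35.1), the reverse of the expressing libraries, and Taf12 (11.9) moved above Taf8 (9.48) and Taf5 (7.95). The tiers depend on the annotated lengths. With all merged exons as the length, Taf1, Taf2 and Taf6 still led and Taf13 was still last, but Taf5 came before Taf11 and Taf12 before Taf8. Neither length shows the effect of a shorter Taf10 or Taf12 transcript. Their main transcripts have 4281 and 3787 bases, of which 654 and 483 are coding, and their merged exons 4584 and 4038 bases. Whether transcripts this long were expressed was not tested, so the places of Taf10 and Taf12 are uncertain.

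**Figure D3:**
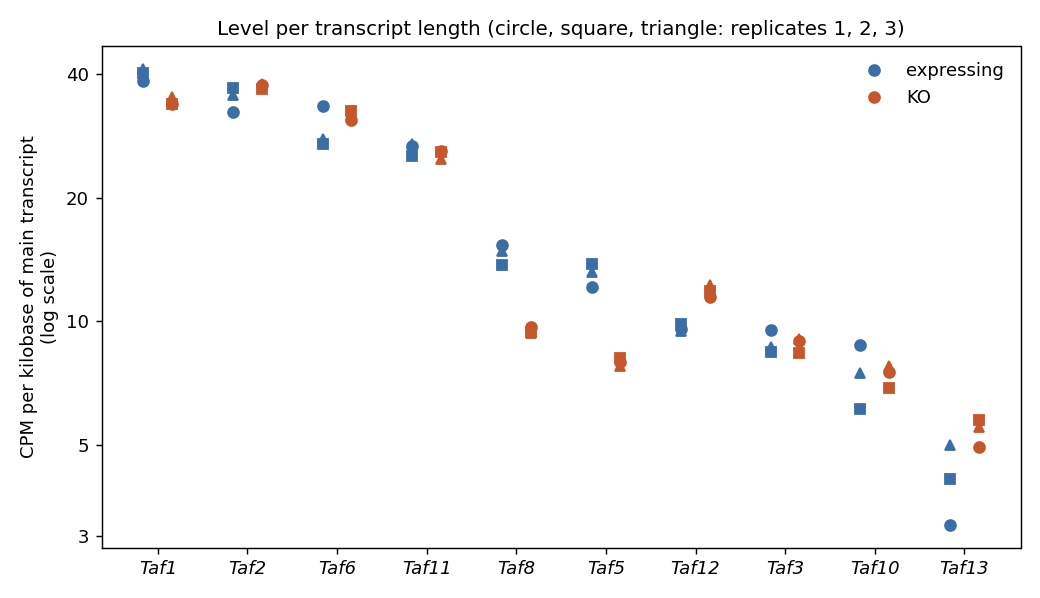
CPM per kilobase of main transcript (log axis) for each member and library, expressing in blue and KO in orange, ordered by the expressing mean. Taf1, Taf2, Taf6 and Taf11 form the upper tier, Taf13 lies lowest in every library, and Taf5, Taf8 and Taf12 show the shift between groups.

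Ratios between the transcripts of histone-fold partners do not depend on library scaling. The size of a ratio rests on the main transcript lengths used, while its log2 difference between the groups does not. The Taf8 to Taf10 ratio per length was 1.76, 2.25 and 1.99 in expressing replicates 1 to 3 and 1.28, 1.37 and 1.20 in KO replicates 1 to 3, lower in each KO library than in any expressing one (log2 difference -0.63). For Taf13 to Taf11 the ratio was 0.120, 0.163 and 0.185, then 0.191, 0.222 and 0.223, again with no overlap (log2 difference 0.46). Only a narrow gap separates expressing replicate 3 from KO replicate 1 there. The Taf12 to Taf4 ratio was 0.649, 0.640 and 0.638, then 0.691, 0.761 and 0.766 (log2 difference 0.20). For each of these 3 pairs a two-sided exact permutation test over libraries gave p = 0.1, the smallest that 3 against 3 libraries allow, and 0.167 adjusted over the 5 pairs, so none could pass 0.05.

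The Taf3 to Taf10 ratio was 1.09, 1.38 and 1.16, then 1.18, 1.22 and 1.16, with a log2 difference of -0.02 (exact p = 1). Both ratios to Taf10 are uncertain if strands were not kept apart in counting. Exons of Ilk, on the opposite strand, cover 45.9% of the merged Taf10 exons. Taf6 to Taf9 differed by 0.29 on the log2 scale (exact p = 0.4), but Taf9 was counted only 18 to 40 times per library and shares 73.8% of its merged exons with Ak6 on the same strand. That ratio therefore says little. Leaving out each library kept the direction of every ratio but Taf3 to Taf10, which became 0.08 without expressing replicate 2. The Taf13 to Taf11 difference was 0.28 without expressing replicate 1, and that of Taf6 to Taf9 ranged from 0.10 to 0.57.

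**Figure D4:**
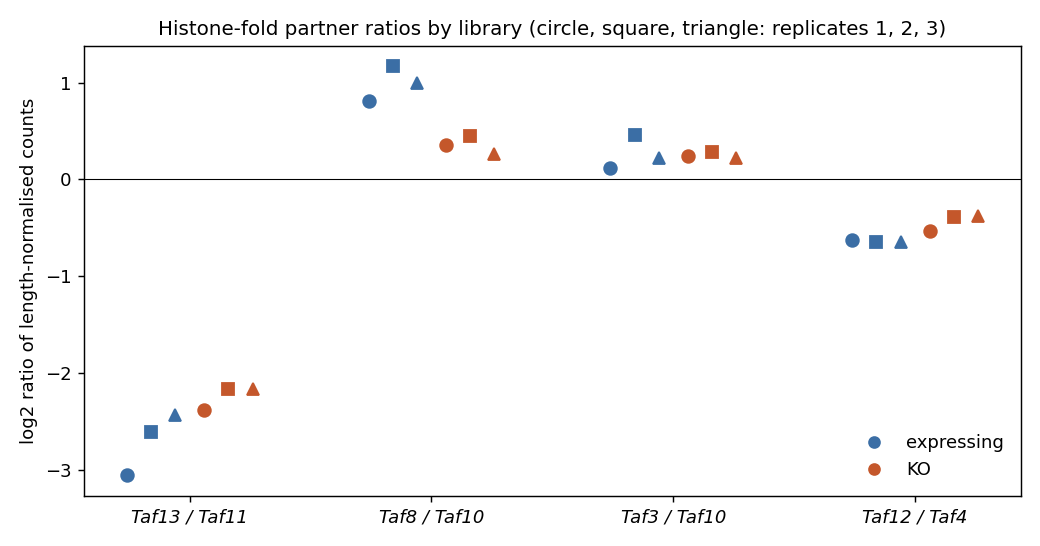
Log2 ratio of length-normalised counts for 4 histone-fold pairs by library, expressing in blue and KO in orange. Taf8 to Taf10 is lower and Taf13 to Taf11 and Taf12 to Taf4 are higher in all KO libraries, and Taf3 to Taf10 overlaps.

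Of the 7 other TFIID genes, 2 rose and 1 fell, a share near the 40% of all tested genes called, with a median log2 fold change of -0.08. Taf7l, a paralogue of Taf7 known from germ cells, rose by 0.83 and Taf9b, a paralogue of Taf9, by 0.51, while Taf7 fell (-0.36, adjusted p = 0.00181, edgeR). Tbp (-0.08), Taf4 (0.10), Taf4b (-0.13) and Taf9 (-0.21) did not pass. The Taf9b call was lost without KO replicate 3 (adjusted p = 0.0576, edgeR), and without expressing replicate 1 Tbp (-0.12) and Taf4b (-0.15) fell as well and Taf4 (0.11) rose. Tbp (-0.14) and Taf4b (-0.19) also passed with the GC trend removed, and Taf4 (0.19) with library totals. A list of 9 core promoter genes held general factors and regulators or relatives of TBP. Of these 9, 1 rose and 2 fell, again near the 40% of all genes, with a median of 0.01. Gtf2a1, the large TFIIA subunit gene, went from 55.7, 78.2 and 75.3 CPM to 101.3, 93.3 and 101.2 CPM (log2 fold change 0.50), and Gtf2f1 of TFIIF fell (-0.36). Tbpl1, a TBP-like factor, also fell, at an adjusted p of 0.0499 (edgeR), and was named after its value was seen. Without expressing replicate 1, 2 of these 9 rose and 4 fell, and 1 rather than 2 fell without any other library or with library totals. With the GC trend removed, 3 rose and 3 fell, beside 53.4% of all genes.

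SAGA, the coactivator that shares TAF10 and TAF12 with TFIID, has its own relatives of several TAFs. Of 6 SAGA core genes, not all of them TAF relatives, 3 fell and 0 rose in edgeR. That stands beside 20.8% of all tested genes lower and 19.2% higher. In this list 0 were higher by DESeq2 or before adjustment (p under 0.05), and the median log2 fold change was -0.18. In either direction, 40% of all tested genes were called. With library totals or without KO replicate 3, 2 of these 6 fell, beside 14.5% of all tested genes lower in each. Taf5l, the SAGA counterpart of Taf5, fell (-0.42, SE 0.0563, adjusted p = 3.80e-04, edgeR), from 92.9 ± 1.27 to 69.3 ± 1.99 CPM (SD, n = 3). The other decreases, named after their values were seen, were Taf6l (-0.43) and Supt3 (-0.36), whose product has histone folds like those of TAF11 and TAF13. Taf6l thus fell where Taf6 did not pass, a difference that was not itself tested.

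**Figure D5:**
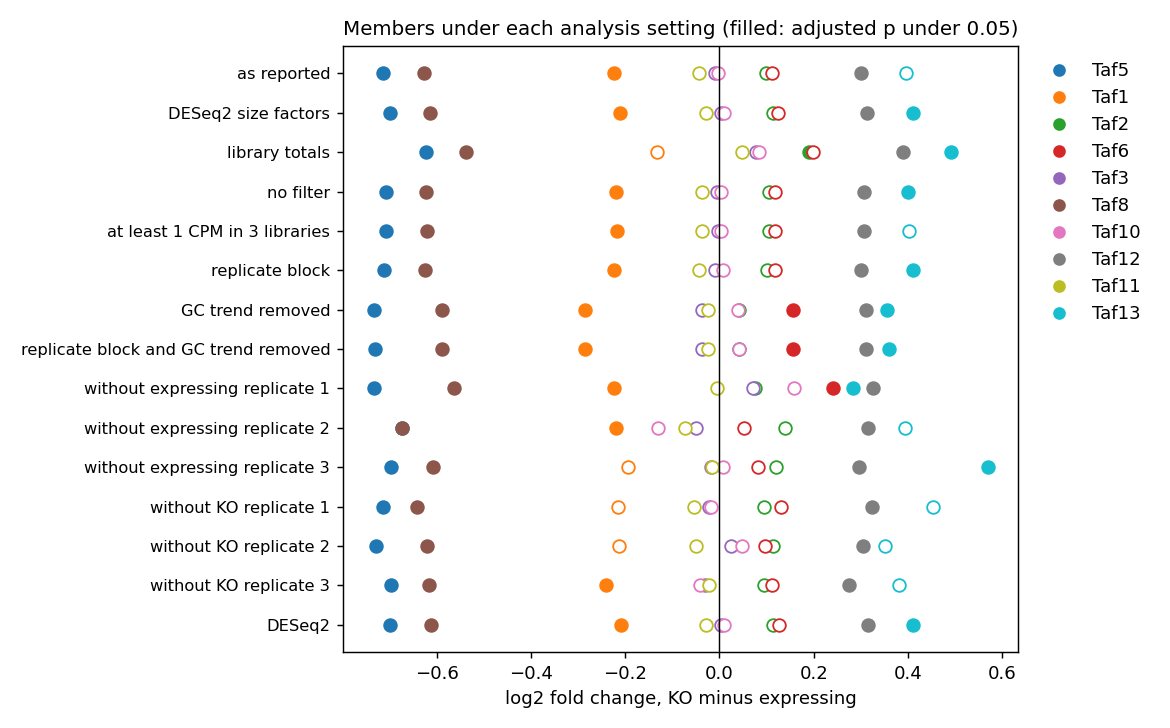
Log2 fold changes of the 10 members (horizontal axis) as reported and under 14 alternative settings (rows); filled points had an adjusted p under 0.05. Taf5 and Taf8 stay filled on the left and Taf12 on the right in every row, Taf1 is open in 4 rows, Taf13 is filled in 9 alternative rows, and Taf3, Taf10 and Taf11 are unfilled near 0 throughout.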

How the data were processed

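A stranded kit was used on polyadenylated RNA, per the labels' protocols. The authors deposited whole-number read counts per Ensembl gene, not normalized. The tools were HTSeq 0.6.1p1, STAR 2.5.3a, cutadapt 1.10 and bcl2fastq 2.20.0.422, with build mm10, per the submitters' processing notes. Settings, strand option and annotation release: not given in the sources used here. Symbols, exons and GC content came from GENCODE M21 (GRCm38), which named 55141 of 55401 identifiers.

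The count test was edgeR 4.0.16 in R 4.3.3 (filterByExpr with a minimum count of 10 and a minimum total of 15, TMM scaling, robust quasi-likelihood test with the group as its only term), and DESeq2 1.42.0 was an alternative. Benjamini-Hochberg adjustment covered the 17778 tested genes (threshold 0.05). The step was tested on simulated data. CPM values use TMM-scaled library sizes, and 3 counts correspond to 0.0581 to 0.0961 CPM; such floors cover counting error only. Log2 ratios had a prior count of 0.5. Each GC trend was a lowess curve per library. Replicates are separate dishes that may share a starting culture, so p-values may measure only the spread between dishes.

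The members and lists were chosen with earlier results of these data known. All 10 members and the other TFIID subunits were named; from further lists, the called gene with the smallest p in each direction, and the first 3 cell type markers.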

Additional observations from a re-analysis of the deposited data

How the results depend on the processing

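Taf5, Taf8 and Taf12 kept direction and call under all 14 alternatives. The Taf13 log2 fold change of 0.40, which missed the threshold, passed it with DESeq2 size factors (0.41), library totals (0.49), no filter (0.40), the GC trend removed (0.36) and DESeq2 (0.41); leaving out single libraries gave 0.28 to 0.57. Members called higher, 1 as reported, numbered 2 with DESeq2 size factors, no filter or DESeq2, 3 with library totals or the GC trend removed, and 1 to 3 with a library left out. The share of all genes called higher, 19.2% as reported, moved too: 20.2% with DESeq2 size factors, 11.4% without a filter, 16.7% with DESeq2, 25.1% with library totals, 25.5% with the GC trend removed and 14.1% to 26.2% with a library left out.

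Near-zero values changed sign without passing. Taf10 (-0.00 as reported) was 0.0096 with DESeq2 size factors, 0.0094 with DESeq2, 0.083 with library totals, 0.00274 without a filter, 0.00294 with at least 1 CPM in 3 libraries and 0.038 with the GC trend removed, and -0.13 to 0.16 with a library left out. Taf3 was 0.00297 with DESeq2 size factors, 0.078 with library totals, 0.00409 with DESeq2 and -0.049 to 0.070 with a library left out. With library totals Taf11 was 0.047 and Tbp 0.00933, and 4466 genes were called higher and 2570 lower, against 3422 and 3695.

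No pairing by replicate number was seen: same-numbered deviations had r of 0.02, -0.03 and 0.03. Expressing replicate 1 had its highest r with KO replicate 2, at only 0.045, and all pairs lay between -0.07 and 0.06. Values this small do not show whether same-numbered libraries shared a batch. With the replicate number as a block, Taf13 was 0.41 and passed, Taf10 was 0.00750, members called higher numbered 2, and 3243 genes were higher and 3401 lower. Together with the GC trend removed, the block gave Taf13 0.36, Taf10 0.042 and 3 members higher.

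Among the TFIID genes Taf9 had the fewest counts, 18 to 40 per library.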
